A study of Mus musculus with 6 samples.

Results

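The semaphorins, plexins and neuropilins are the genes whose symbol begins with Sema3 to Sema7 or with Plxn, or equals Nrp1 or Nrp2. By this rule 31 of the 19938 genes on the arrays were members, 20 semaphorin ligands and 11 receptors (9 plexins and 2 neuropilins), measured by 33 probe sets. They were read on 6 Affymetrix Mouse Gene 1.0 arrays, 3 of a dendritic and 3 of a macrophage population. Both populations came from bone marrow of the tibia and femur of C57B/6 mice, grown as single cells for 6 days in 20 ng/ml recombinant GM-CSF, a cytokine that drives myeloid growth, and both are labelled unstimulated. Not stated in the labels are the age and sex of the mice, how the populations were separated, and whether replicates are separate mice or cultures. A p-value here thus measures the spread between these arrays, which may be technical.

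Semaphorins are extracellular ligands, first known as guidance cues of growing axons, that share a sema domain. Class 3 members are secreted, classes 4 to 6 span the membrane and Sema7a is held by a lipid (GPI) anchor. Plexins are their main receptors and carry a GTPase-activating domain inside the cell that acts on small Ras-family GTPases and so on integrins and actin. Most class 3 semaphorins reach class A plexins through a neuropilin, a co-receptor that also binds vascular endothelial growth factor (VEGF). In the immune system these proteins are known for steering the migration of dendritic cells and for contacts between dendritic cells, macrophages and T cells.

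Values are the deposited log2 RMA values of 1 probe set per gene, the one with the highest mean over the arrays. Differences, in log2 units and ± SE, subtract the macrophage mean from the dendritic mean (n = 3 arrays each), so a positive value is higher in the dendritic population. A gene was called at a limma Benjamini-Hochberg adjusted p under 0.05, adjusted over all 19938 genes. The deposited table has no detection calls. A mean near or below 5.14, the median over all genes, may hold little signal of the gene, and a fold against such a value is one on this scale only. With bulk RNA, fewer cells of a type and less RNA per cell cannot be told apart, and 3 arrays a population limit the precision.

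Both labels were read beside markers of each cell type. These lists were chosen with earlier results of these data known, so they are no independent check of the labels. All 8 markers listed for dendritic cells (among them Flt3, Zbtb46 and Ccr7) were higher in the dendritic arrays, and all 7 measured of 8 macrophage markers (among them Csf1r, Mertk and Adgre1) were lower. Of the 8, Ccr7, Fscn1 and Cd83 had the highest dendritic means (11.45, 11.44 and 11.12). These lists do not separate cell type from maturation state, and whether the populations differ in maturation was not tested. The differences below are thus between the populations as labelled. The 9 neutrophil markers had a mean log2 value of 6.38 to 7.66 in the dendritic and 6.49 to 7.84 in the macrophage arrays, highest in replicate 1 of each population, and 1 of the 9 (Mpo) was called, as lower. Of 7 stromal and endothelial markers none was called by limma (0 also at an unadjusted p under 0.05), with means of 4.27 to 4.74 and 4.42 to 4.67. Among the T and NK cell, mast cell and B cell lists the called genes were Klrd1, Kit and Cd79a, 1 in each. All 3 were higher in the dendritic arrays without overlap. Klrd1 was higher by 11.7-fold (means 7.61 and 4.07) and Kit by 6.81-fold (7.39 and 4.62). Cd79a was dim in both populations (3.95 and 3.14). The CD3 chains Cd3d and Cd3g stayed at 3.62 or less on every array, and Cd3e lay between 4.97 and 5.71 in both populations. None of the 3 plasmacytoid dendritic or 4 measured erythroid and megakaryocyte markers was called by limma.

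Sema7a had the largest difference of the family. It was 31.4-fold higher in the dendritic arrays, and its receptor Plxnc1 was 2.36-fold higher in the same arrays. Against this, the macrophage arrays were higher for Sema4b, Sema4d, Plxna1 and Nrp1, each by over 4-fold, for Sema4d on 1 of its 2 probe sets only. Of the 31 members 10 were called (32.3%), 5 higher and 5 lower in the dendritic population. The background over all genes was 21.6% called, 9.98% higher and 11.6% lower. A called difference of at least 2-fold was seen for 7 members, where 10.3% of all genes had one. For 13 members no dendritic value fell within the range of the macrophage values or the reverse, 7 with the dendritic arrays above and 6 with the macrophage arrays above. Over all genes 34.0% did not overlap. The median difference of the members was 0.039, beside 0.034 over all genes. With each array centred on its 75th percentile, which moved the median difference of all genes by 0.099, the members' calls were 7 higher and 4 lower (63.6% higher, 50% without the centring). The calls over all genes moved the same way, to 2319 higher and 1863 lower (55.5% higher, 46.2% without it).

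**Figure D1:**
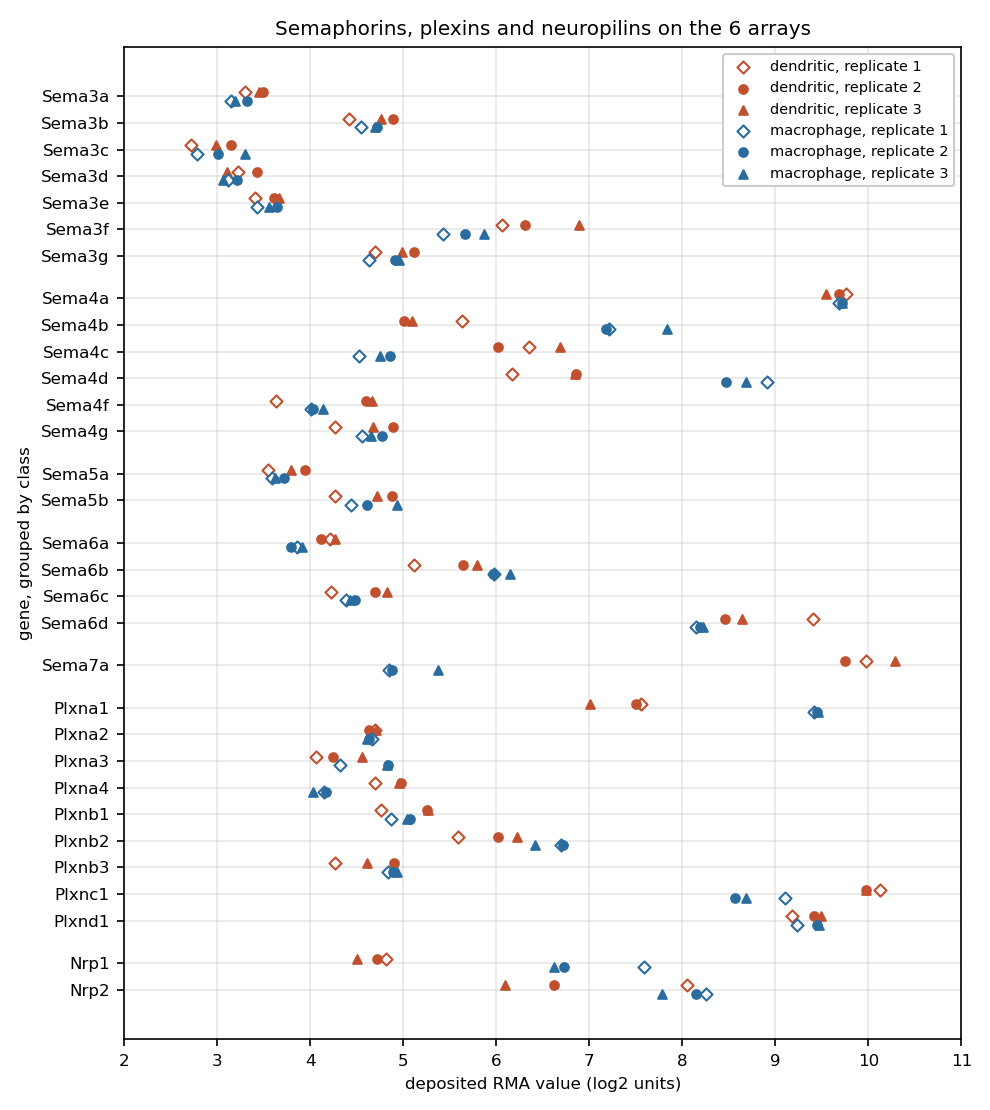
Deposited log2 RMA value (horizontal axis) of each of the 31 genes (vertical axis, grouped by class) on the 3 dendritic and 3 macrophage arrays, 1 point per array, with replicate 1 drawn open. The Sema7a points of the dendritic arrays lie between 9.75 and 10.29 and those of the macrophage arrays between 4.85 and 5.37, while the points of Sema4a and Plxnd1 lie together.

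**Figure D2:**
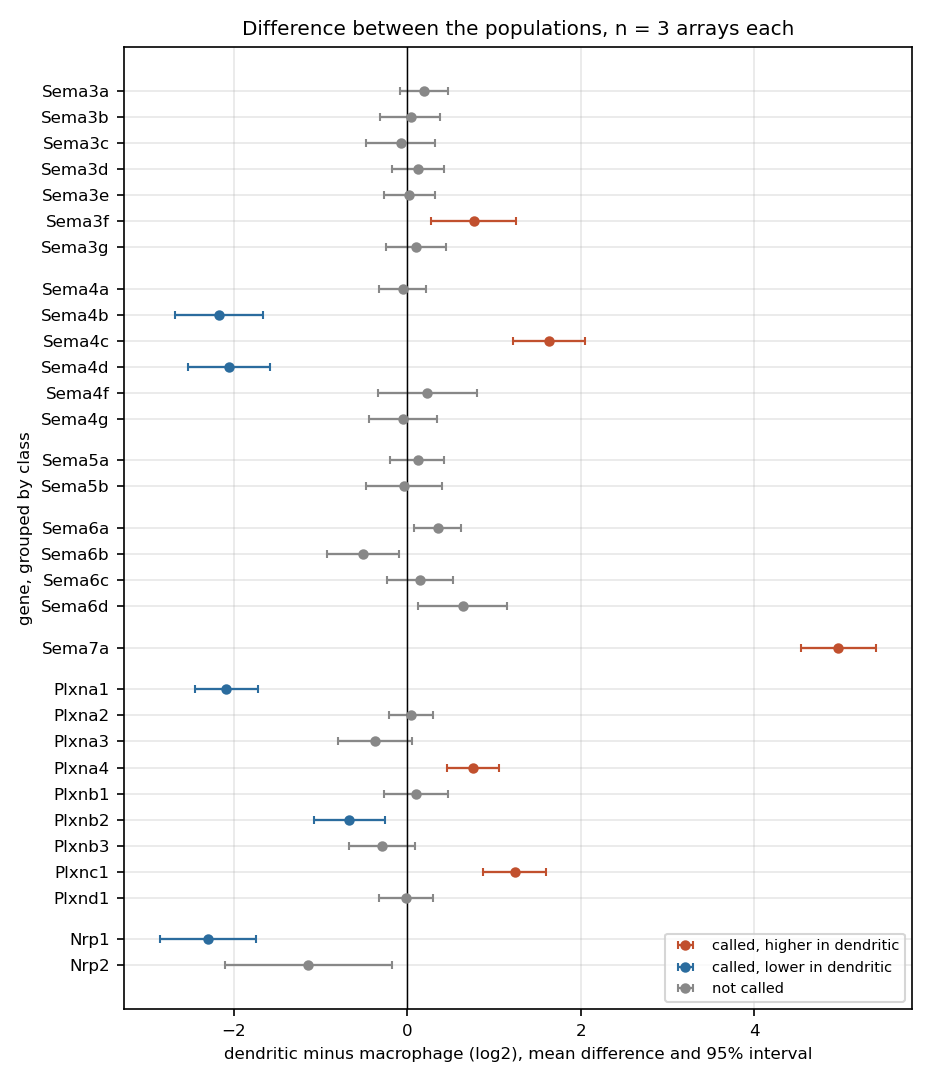
Dendritic minus macrophage mean (log2) of each gene with its 95% interval from limma, n = 3 arrays per population. The 5 genes called higher reach from 0.76 to 4.97 and the 5 called lower from -0.67 to -2.30, and the 21 that were not called lie between -1.14 and 0.64.

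Ligands and receptors were compared separately. Of the 20 semaphorins 5 were called (3 higher, 2 lower; 25.0%) with a median difference of 0.11. Of the 11 receptors 5 were called (2 higher, 3 lower, 45.5%) with a median of -0.29. Over all genes 21.6% were called, with a median of 0.034, so the share of the ligands was near that of all genes. The number of genes is small, and whether the shares of ligands and receptors differ was not tested.

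Sema7a stands first among the ligands. This GPI-anchored semaphorin binds plexin C1 and beta-1 integrins and is known from activated T cells and myeloid cells. Its values were 9.98, 9.75 and 10.29 in dendritic replicates 1 to 3 and 4.85, 4.88 and 5.37 in macrophage replicates 1 to 3. All 3 dendritic arrays lay far above all 3 macrophage arrays, and the macrophage mean of 5.03 was below the median over all genes. The difference was 4.97 ± 0.19 (limma adjusted p = 5.48e-07), and it was called in all 16 alternative settings (4.83 to 5.14 when single arrays were left out).

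Its receptors were measured beside it. Plxnc1, the only class C plexin and the known receptor of Sema7a, read 10.13, 9.97 and 9.97 in the dendritic and 9.10, 8.57 and 8.69 in the macrophage arrays. The groups did not overlap, and Plxnc1 was bright in both. The difference was 1.24 ± 0.16 (limma adjusted p = 0.000523). Of the integrin chains that Sema7a also binds, Itga1 was lower by 2.10 ± 0.18 on the log2 scale in the dendritic arrays (dendritic mean 6.34, macrophage mean 8.44, limma adjusted p = 3.86e-05). Itgb1 had means of 9.62 and 9.29, a difference of 0.33 that was not called (adjusted p = 0.106) except in 1 of 16 alternatives (limma adjusted p of 0.0487 to 0.271). The ligand and its plexin were thus both higher in the dendritic arrays, and 1 of the 2 integrin chains was lower.

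The class 4 semaphorins are membrane proteins with many roles in the immune system, and 3 of the 6 were called, in both directions. Sema4d (CD100), which binds class B plexins and, on lymphocytes, Cd72, read 6.17, 6.86 and 6.85 in the dendritic and 8.91, 8.47 and 8.68 in the macrophage arrays. Every macrophage array was above every dendritic array, by a mean difference of -2.06 ± 0.21 (4.16-fold lower, limma adjusted p = 0.000116). The other probe set of Sema4d had values of 5.28 to 5.85 in the dendritic and 5.96 to 6.07 in the macrophage arrays. It lay the same way without overlap, but its difference of -0.44 was not called (adjusted p = 0.154, where the probe set above had 0.00130, both over all probe sets). With the mean of both probe sets the Sema4d difference was -1.25 (limma adjusted p = 0.000906). Its size therefore depends on the probe set.

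Sema4b read 5.63, 5.01 and 5.09 in the dendritic and 7.21, 7.18 and 7.84 in the macrophage arrays. The groups were apart, and the dendritic mean of 5.25 was close to the median over all genes. The difference was -2.17 ± 0.22 (4.49-fold lower, limma adjusted p = 0.000134). Sema4c, known as a ligand of plexin B2, ran the other way, with 6.35, 6.02 and 6.68 in the dendritic and 4.52, 4.86 and 4.75 in the macrophage arrays. It was higher by 1.64 ± 0.18 (3.11-fold, limma adjusted p = 0.000220), again without overlap.

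Sema4a, a costimulatory semaphorin of dendritic cells that binds Timd2 and several plexins, was bright and even. It read 9.76, 9.68 and 9.55 in the dendritic and 9.69, 9.72 and 9.72 in the macrophage arrays, which overlap. The difference was -0.045 ± 0.12 (adjusted p = 0.885), with a 95% interval from -0.32 to 0.22, so a difference of 2-fold lies outside it. Timd2 itself had means of 2.84 and 2.88 and was not called. Sema4f and Sema4g had means of 4.06 to 4.66 in both populations and were not called. Sema4f read 3.63 in dendritic replicate 1 and 4.60 and 4.66 in the other two, beside 4.01 to 4.14 in the macrophage arrays. Without dendritic replicate 1 it was called (0.57, limma adjusted p = 0.0113), and likewise without replicate 1 of both populations (0.54, 0.0163); its adjusted p ranged from 0.0113 to 0.958 over the alternatives.

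Among the secreted class 3 semaphorins only Sema3f was called. Sema3f, which signals through neuropilin 2, read 6.06, 6.31 and 6.89 in the dendritic and 5.43, 5.66 and 5.87 in the macrophage arrays without overlap. The difference was 0.77 ± 0.22 (1.70-fold, limma adjusted p = 0.0335). It was no longer called by limma when dendritic replicate 2 was left out (adjusted p = 0.0704), nor when this was replicate 3 (0.0869, with a difference of 0.53). The same held on leaving out macrophage replicate 1 (0.0942) or 2 (0.0886), and when all probe sets were tested (0.0855). The other 6, namely Sema3a, Sema3b, Sema3c, Sema3d, Sema3e and Sema3g, had population means between 2.96 and 4.93, all below the median over all genes, and differences between -0.074 and 0.19. None of the 6 was called in any alternative. Their levels are too low on this scale for a statement that they are the same in both populations.

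The class 5 genes Sema5a and Sema5b, whose proteins carry thrombospondin repeats, had means of 3.64 to 4.66 and differences of 0.12 and -0.038, neither called. The class 6 semaphorins are transmembrane ligands of class A plexins. None of the 4 was called. For 3 of them the populations did not overlap, which was also so for 34.0% of all genes. Sema6d, a ligand of plexin A1, read 9.40, 8.46 and 8.64 in the dendritic and 8.15, 8.19 and 8.22 in the macrophage arrays. Dendritic replicate 1 stands above the other two, and all 3 lie above the macrophage arrays. The difference of 0.64 ± 0.22 had an adjusted p of 0.0781 and was called in the fit that blocks on the replicate number (limma adjusted p = 0.0468). It was also called without dendritic replicate 2 (0.83, 0.0395), with array weights (0.0367) and after centring on the 75th percentile (0.0246), within 0.0246 to 0.174 over the alternatives. Without dendritic replicate 1 the difference was 0.36 (limma adjusted p = 0.0795), and without replicate 1 of both populations 0.34 (0.114).

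Sema6b lay lower in the dendritic arrays, at 5.12, 5.64 and 5.79 against 5.97, 5.96 and 6.15. It was not called (-0.51 ± 0.18, adjusted p = 0.0824) except in the fit with the replicate block (limma adjusted p = 0.0321; 0.0321 to 0.234 over the alternatives). Without dendritic replicate 1 the Sema6b difference was -0.31 (limma adjusted p = 0.138). The 2 probe sets of Sema6b carry the same values on every array and count as 1 measurement. Sema6a lay higher, with a mean of 4.20 against 3.85 (0.35 ± 0.12, adjusted p = 0.0732), and was called by limma with array weights (0.0171) and with 75th-percentile values set equal across arrays (adjusted p = 0.0491; 0.0171 to 0.262 over the alternatives). Sema6c had means of 4.58 and 4.43 and was not called (adjusted p = 0.669).

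Class A plexins are the signalling partners of neuropilins and the direct receptors of class 6 semaphorins. Plxna1, which on dendritic cells and osteoclasts is known to work with Trem2 and the adaptor Tyrobp, read 7.56, 7.50 and 7.01 in the dendritic and 9.42, 9.45 and 9.46 in the macrophage arrays. Every macrophage array was above every dendritic array and the macrophage values lay close together. The difference was -2.09 ± 0.16 (4.24-fold lower, limma adjusted p = 2.49e-05). Trem2 was lower in the same arrays, with means of 6.12 and 9.15 (-3.03 ± 0.17, limma adjusted p = 4.25e-06). Tyrobp was bright in both, at 11.26 and 11.72, without overlap. Its difference of -0.46 was not called (limma adjusted p = 0.0509), and was called as lower in 4 of 16 alternatives (0.00935 to 0.195).

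Plxna4 read 4.69, 4.98 and 4.95 in the dendritic and 4.15, 4.17 and 4.03 in the macrophage arrays. It was higher by 0.76 ± 0.13 (limma adjusted p = 0.00277) and called in all 15 alternatives that tested it. Both means, 4.88 and 4.12, lie below the median over all genes, so a call was made here on dim values. Plxna2 had means of 4.68 and 4.63 and a difference of 0.046 with a 95% interval from -0.21 to 0.30. Plxna3 had means of 4.29 and 4.66 (-0.37, adjusted p = 0.234). Neither was called in any alternative.

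Of the class B plexins, receptors of class 4 semaphorins, Plxnb2 was called as lower. It read 5.59, 6.02 and 6.22 in the dendritic and 6.70, 6.72 and 6.42 in the macrophage arrays without overlap. The difference was -0.67 ± 0.18 (1.59-fold lower, limma adjusted p = 0.0270). Leaving out dendritic replicate 2 ended the call (limma adjusted p = 0.0611), as did leaving out macrophage replicate 1 (0.0702) or 2 (0.103), or replicate 1 of both populations (0.0741, with a difference of -0.45). It also ended with 75th-percentile values set equal across arrays (limma adjusted p = 0.0805), after quantile normalization was applied again (0.0614) and when all probe sets were tested (0.0668). Plxnb1 (means 5.09 and 4.99) and Plxnb3 (4.59 and 4.88) were not called. Cd72, the lymphocyte receptor of Sema4d, had means of 5.77 and 6.27 and was called as lower only in the fit with the replicate block (-0.51, limma adjusted p = 0.143, and 0.0267 with the block).

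Plxnd1, the receptor that Sema3e binds without a neuropilin, was bright in both populations, as Sema4a was. It read 9.18, 9.42 and 9.49 in the dendritic and 9.23, 9.45 and 9.47 in the macrophage arrays. The ranges nearly coincide, and the 95% interval of the difference reached from -0.33 to 0.30 (adjusted p = 0.966).

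The 2 neuropilins both had lower dendritic means. Nrp1, the co-receptor of Sema3a and VEGF, read 4.81, 4.72 and 4.50 in the dendritic and 7.59, 6.73 and 6.62 in the macrophage arrays. No dendritic array came near the macrophage arrays, although macrophage replicate 1 stood above the other two. The difference was -2.30 ± 0.24 (4.93-fold lower, limma adjusted p = 0.000149), called in all 16 alternatives (-2.48 to -2.00 when single arrays were left out). The dendritic mean of 4.68 is below the median over all genes.

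Nrp2, a co-receptor of Sema3f and of VEGF-C that is known from migrating dendritic cells, split the dendritic arrays. It read 8.05, 6.62 and 6.09 there and 8.25, 8.15 and 7.78 in the macrophage arrays. Dendritic replicate 1 lay among the macrophage arrays, while replicates 2 and 3 lay below all of them. Over all 6 arrays the difference was -1.14 ± 0.42 and was not called (limma adjusted p = 0.0951, 95% interval -2.10 to -0.18). It was called without dendritic replicate 1 (-1.71, adjusted p = 0.000588), without replicate 1 of both populations (-1.61, 0.000549), with array weights (-1.57, 0.00186) and in the fit with the replicate block (-1.14, limma adjusted p = 0.0180). Without dendritic replicate 3 the difference was -0.72 (limma adjusted p = 0.283), and the adjusted p ranged from 0.000549 to 0.283 over the alternatives. Among 9 neutrophil markers, 7 were also highest in replicate 1 of the dendritic arrays (Elane and Mpo were not), and all 9 in replicate 1 of the macrophage arrays. Retnlg, the most uneven of them, read 7.43 in dendritic replicate 1 and 4.33 and 4.32 in the other two, and 7.39 against 4.31 and 4.25 in the macrophage arrays. Their part in the Nrp2 values was not tested.

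**Figure D3:**
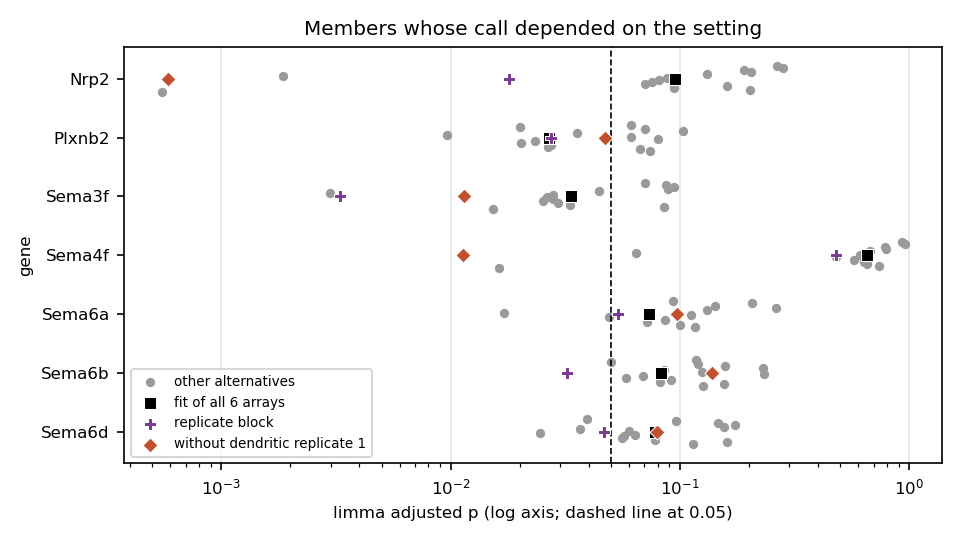
Limma adjusted p (log axis, dashed line at 0.05) of the 7 members whose call changed under an alternative setting, for the fit of all 6 arrays (square), the replicate block (cross), the fit without dendritic replicate 1 (diamond) and the other alternatives (grey). Nrp2 reaches 0.000588 and Sema4f 0.0113 without dendritic replicate 1, while Plxnb2 and Sema3f lie on both sides of the line.

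Genes taken as partners of the family were read from 5 gene lists. Of 60 measured genes (63 listed) 27 were called, 12 higher and 15 lower, or 45.0% beside the 21.6% of all genes, with a median difference of -0.061. The 2 shares are of unlike levels, since 15 of the 60 had a mean below the median over all genes, as had 9969 of all 19938 genes. With only genes above the median level tested, 25 of 45 listed genes and 4047 of 9969 genes were called. Whether the shares differ was not tested. Of the 27, 18 were called in every alternative that tested them. Among 15 other receptors and partners 2 were higher and 3 lower. L1cam, an adhesion molecule that joins neuropilin 1 in the Sema3a receptor, was higher by 2.81 ± 0.16 (dendritic mean 8.53, macrophage mean 5.72, limma adjusted p = 4.28e-06). The macrophage arrays were higher for Trem2, Itga1 and the inhibitory receptor Lilrb4a (-3.48 ± 0.20), whose tie to the family was not checked here. Kdr, a VEGF receptor that associates with neuropilin 1, was not called over all arrays (-0.86, limma adjusted p = 0.0735), and was called as lower in 5 of 15 alternatives (0.00497 to 0.217), the replicate block (0.0168) among them. Erbb2, a kinase that associates with class B plexins, was higher by 0.42 on dim values (adjusted p = 0.0337). On leaving out 1 array, the call held only without dendritic replicate 1 (limma adjusted p of 0.0645 to 0.120 without each of the other 5). It was also lost when all probe sets were tested (limma adjusted p = 0.0536) and without replicate 1 of both populations (0.0601).

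The VEGF ligands that share the neuropilins went both ways, and neither call held throughout. Vegfc had means of 4.56 and 3.95 and was called as higher by 0.61 (limma adjusted p = 0.0269). That call ended on leaving out replicate 1 or 2 of the dendritic (limma adjusted p of 0.0598 and 0.0984) or of the macrophage arrays (0.0781 and 0.111). It also ended when all probe sets were tested (limma adjusted p = 0.0623) and without replicate 1 of both populations (0.0965). Placental growth factor Pgf read 4.57, 4.32 and 4.80 in the dendritic and 4.79, 7.06 and 6.84 in the macrophage arrays. Macrophage replicate 1 lay within the dendritic range. The call of Pgf (-1.67, limma adjusted p = 0.0456) held on leaving out macrophage replicate 1 and on leaving out no other single array (adjusted p of 0.0847 to 0.156). Without replicate 1 of both populations the difference was -2.39 (limma adjusted p = 2.99e-05). Pgf was not called with the changed prior (limma adjusted p = 0.106) or when all probe sets were tested (0.121). Vegfa was bright in both (8.39 and 8.70) and not called. Vegfb was not called either (0.26), except in 1 of 16 alternatives (limma adjusted p of 0.0444 to 0.920).

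Plexins act on small GTPases of the Ras family through their inner domain. Of 17 measured GTPases and exchange factors 3 were higher and 4 lower. Within the R-Ras group, known substrates of plexins, Rras2 was higher by 1.55 ± 0.20 (limma adjusted p = 0.000541) and Mras lower, at -2.00 ± 0.19 (8.49e-05). Rras was called as lower by a smaller amount (-0.74, limma adjusted p = 0.0324). That call ended on leaving out dendritic replicate 1 (limma adjusted p = 0.0817) or 2 (0.0976), or macrophage replicate 2 (0.125) or 3 (0.119). It also ended after centring on the 75th percentile (0.0839), after quantile normalization was applied again (0.0550) and when all probe sets were tested (0.0821). Rac2, the Rac protein of blood cells, was lower (-2.10 ± 0.18, limma adjusted p = 3.88e-05). Rap1a (-0.51, limma adjusted p = 0.0343) was not called on leaving out dendritic replicate 2 (0.116) or 3 (0.0885), or macrophage replicate 1 (0.108) or 2 (0.0940). The call of Farp1, a plexin-bound exchange factor (0.41, limma adjusted p = 0.0416), was lost when any 1 array was left out (adjusted p of 0.0740 to 0.131). Rac1 and Rhoa, bright in both, had differences of 0.011 and 0.0020 and were not called. The exchange factor Arhgef12, which class B plexins bind, was not called over all arrays (-0.55, limma adjusted p = 0.233), and was called as lower in 4 of 16 alternatives (0.0159 to 0.544), the replicate block (0.0159) among them.

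Of 20 measured genes in the list of cytosolic mediators 6 were higher and 3 lower, and the lower ones include Plxdc2, described below. The Src-family kinase Fyn, which phosphorylates plexin A and its effectors, was higher by 3.02 ± 0.29 (dendritic mean 8.27, macrophage mean 5.25, limma adjusted p = 8.00e-05). Of 5 collapsin response mediators, named for the response to Sema3a, 2 were called: Dpysl5 was higher by 2.49 ± 0.23 (limma adjusted p = 7.51e-05) and Dpysl2 lower, at -1.53 ± 0.14 (6.13e-05). Crmp1, Dpysl3 and Dpysl4 had differences of 0.017, -0.085 and 0.058 and were not called. Mical2 (1.26 ± 0.19) and Mical3 (1.33 ± 0.18), of the family of oxidases that disassemble actin filaments, were higher, and the kinase Fes was lower (-0.84 ± 0.13). Plxdc2, a membrane protein with a plexin-like domain that is no plexin and was listed here for its name, was lower by the largest amount of the 5 lists (5.54 against 10.25, -4.70 ± 0.13, limma adjusted p = 1.66e-07).

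All 4 proteases listed because they cut semaphorins were lower in the dendritic population. Of all genes 11.6% were called as lower. All 4 proteases had a mean above the median over all genes, and with only such genes tested 2207 of 9969 were called as lower. Whether the proteases differ from other genes as a group was not tested. Mmp14, which sheds Sema4d, had means of 7.10 and 9.42 (-2.32 ± 0.22, limma adjusted p = 8.54e-05), and the sheddase Adam17 had 7.30 and 9.02 (-1.73 ± 0.20, 0.000273). Furin, which processes class 3 semaphorins, was lower by 2.05-fold (-1.04 ± 0.24, limma adjusted p = 0.0127), a call lost without macrophage replicate 3 (0.0537). Adam10 (-0.96 ± 0.28, limma adjusted p = 0.0373) was not called on leaving out dendritic replicate 2 (0.120) or 3 (0.128), or macrophage replicate 1 (0.0999) or 2 (0.0667). Nor was it called when all probe sets were tested (limma adjusted p = 0.0982).

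**Figure D4:**
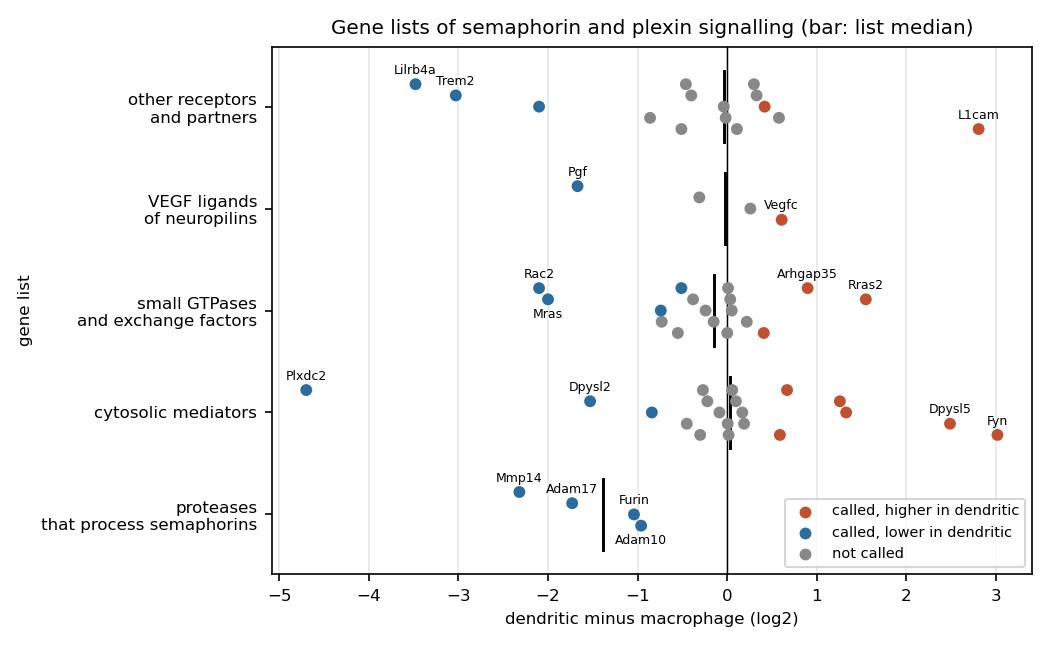
Dendritic minus macrophage difference (log2, horizontal axis) of 60 genes in 5 lists of semaphorin and plexin signalling (vertical axis), 1 point per gene and a bar at each list's median, coloured by the limma call. The 4 proteases lie between -2.32 and -0.96, while the other lists hold genes on both sides of 0.

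Promoter sequences are shown for called members, because these genes move with the population and the windows can be read for the motifs of myeloid factors. The RefSeq promoter table (build GRCm38.p6; 250 bases before to 50 after a start) held 26 of the 31 genes with 37 starts, and 7 of the 10 called genes. Motifs were searched on both strands. They were GAGGAA, a form of the Ets site known for PU.1 and named the Ets core here, TGANTCA, the AP-1 site, and the NF-kB site. Other forms of the Ets site were not searched. The Ets core was in 12 of the 37 windows (32.4%), against 28.3% of all 32851 windows of the table. AP-1 sites were in 3 (8.11%, against 7.81%) and NF-kB sites in 5 (13.5%, against 8.46%). The windows are unlike in base content, with a median of 63.7% G and C in the members' windows and 52.7% in all. Whether the shares differ was not tested. A match describes letters and is not a bound site.

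The part of the first Sema4b window before the start, chr7:80186620-80186869 on the + strand, lies outside the gene's annotated span and is printed with its Ets core in capitals. The other lines are 30-base stretches around a match, which is in capitals, read on the gene's strand; the upstream bases of these windows overlap the annotated span of their gene. The Plxnc1 stretch is chr10:94944988-94945017 (- strand), that of Nrp1 chr8:128358969-128358998 (+ strand), the NF-kB and AP-1 stretches of Sema4c chr1:36558548-36558577 and chr1:36558386-36558415 (- strand), and the AP-1 stretch of Sema4d chr13:51749031-51749060 (- strand).
Sema4b: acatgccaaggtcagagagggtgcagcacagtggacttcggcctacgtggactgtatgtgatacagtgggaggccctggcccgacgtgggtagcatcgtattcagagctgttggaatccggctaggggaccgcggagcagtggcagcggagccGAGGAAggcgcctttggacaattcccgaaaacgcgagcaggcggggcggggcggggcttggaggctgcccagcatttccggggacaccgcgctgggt
Plxnc1: gcggagGAGGAAgaggatGAGGAAggggcc
Nrp1: gggagggggcggGAGGAAgggagggaaggg
Sema4c NF-kB: ctggagcgtgGGGAAGCCCCtcaacccttc
Sema4c AP-1: tggcgcagacctTGACTCAcgagctgcaag
Sema4d AP-1: ccccacatcccTGAATCAgcctatatagga

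The Ets core starts 97 bases before the start of Sema4b, 92 before that of Nrp1, and 166 and 154 before that of Plxnc1, whose window holds 4 matches in all. The Sema4b window also held an NF-kB site 6 bases after the start, and the other Sema4b window an Ets core. It is thus present in windows of genes that were lower (Sema4b, Nrp1) and of a gene that was higher (Plxnc1). The single Sema7a window (chr9:57939862-57940161) was 67.3% G and C, where the median was 63.7% over the members' windows and 52.7% over all windows. It held none of the 3 motifs in these letters. The 2 windows of Plxnb2 also held none. Sema4c, which was higher, had an NF-kB site and an AP-1 site in 1 of its 2 windows, and Sema4d, which was lower, an AP-1 site in 1 of 3.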

How the data were processed

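The authors deposited log2 values of 35556 probe sets on each array. The submitters' processing notes name RMA and R 3.0.2; which arrays RMA was run on, how probe sets were defined and any filter were not stated there. RMA corrects background, normalizes quantiles and summarizes probes, which compresses differences of dim probe sets. Gene names came from GEO's platform annotation, which gave 1 symbol to 21789 probe sets. Of genes with several probe sets (999) the one with the highest mean was used, leaving 19938 genes. Medians of the arrays over all probe sets were 4.79 to 4.96.

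The test was limma 3.58.1 (lmFit, eBayes, 2-sided, Benjamini-Hochberg) in R 4.3.3 on all 6 arrays, with population as the only term and no filter; it was tested on simulated data. Tables were made with Python 3.11.15 and pandas 2.3.3. Of 120 genes in the partner and marker lists 112 were measured. The members and lists were chosen with earlier results of these data known. All members are named; of the partner lists, called genes with the largest differences, up to 4 a direction and list (1 called gene of the GTPase list is not reported here), and a few uncalled ones chosen after their values were seen. After subtraction of the population means, arrays with the same number correlated at 0.385, 0.147 and 0.272, so the numbers in the titles were taken to pair the samples, and a second fit had the number as a term (a replicate block). What a number marks is not stated, and the correlation of dendritic replicate 2 with macrophage replicate 3 was 0.155. Alternatives left out each array, changed the normalization, centring, level filter, prior, weights or probe sets; 16 were run, of which leaving out replicate 1 of both populations was chosen after seeing the data, as was reading the other probe set of Sema4d and Sema6b.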

Additional observations from a re-analysis of the deposited data

How the results depend on the processing

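Of the 10 called members 8 kept their direction and call in every setting that tested them (15 for Plxna4, 16 for the others) with the same probe sets, and Plxnb2 and Sema3f lost their call in 7 and 5 of them without changing direction; the other probe set of Sema4d was not called. The number of members called was 13 with the replicate block (6 higher, 7 lower), which changed the calls of Nrp2, Sema6b and Sema6d and of no other member, and 8 to 12 when 1 array was left out. The partner lists gave 19 to 26 calls and all genes 3311 to 4625 when 1 array was left out, 30 and 5207 with the replicate block. Of the 21 members that were not called, 5 gained a call somewhere and 16 in no setting. Sign changes were seen only for members that were not called: Plxnd1 (0.019 after quantile normalization was applied again, 0.081 after centring), Sema3e (-0.0077 after quantile normalization), Sema4a (0.056 and 0.053 in these 2 settings), Sema3c (0.025 after centring), Sema4g (0.049 after centring, 0.072 without replicate 1 of both populations) and Sema5b (0.070 with array weights, 0.061 after centring, 0.030 without replicate 1 of both). Leaving out 1 array gave -0.094 to 0.074 for Plxnd1, -0.061 to 0.18 for Sema3b, -0.20 to 0.063 for Sema3c, -0.031 to 0.10 for Sema3e, -0.094 to 0.0091 for Sema4a, -0.19 to 0.12 for Sema4g and -0.17 to 0.14 for Sema5b; the cause was not tested. The level filters left out the dimmest members, 6 at the 30th percentile and 17 at the median.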

Other observations

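Replicate 1 often held the lowest value of its population, for members as for dim genes. Dendritic replicate 1 held the lowest of the 3 dendritic values for 19 of the 31 members (61.3%) and macrophage replicate 1 the lowest of its population for 20 (64.5%). Over all genes the shares of lowest values were 47.4% and 47.0%, and over genes with a mean below the median 63.5% and 56.8%. Of the 31 members 17 had such a mean. The median distance of replicate 1 from the mean of the other 2 arrays was -0.27 (dendritic) and -0.085 (macrophage) over the members. Over genes with a mean below the median it was -0.17 and -0.12. Dendritic replicate 1 held the highest value of its population for 7 members, among them Nrp2 (8.05), Sema6d (9.40) and Sema4b (5.63). Klrd1 and Kit, receptors of NK cells and mast cells that are also known from other blood cells, were highest in the same array, at 8.76 and 8.60.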
